A study of Homo sapiens with 12 samples.

Results

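The ephrin and semaphorin guidance genes were taken as every protein-coding gene whose symbol starts with EPHA, EPHB, EFNA, EFNB, SEMA or PLXN followed by a number or letter, together with NRP1 and NRP2. This gave 53 of the 58347 genes counted, namely 8 ephrin ligands, 14 Eph receptors, 20 semaphorins, 2 neuropilins and 9 plexins. Of these, 44 passed the filter on low counts, which kept 16740 genes in all. The other 9 (EPHA1, EPHA5, EPHA8, EPHA10, PLXNA4, SEMA4A, SEMA5A, SEMA5B and SEMA6D) had at most 11 counts in any library and were not tested. RNA was sequenced from A375, an established human melanoma cell line with mutant BRAF, after 8 h in culture with dimethyl sulfoxide (DMSO) vehicle, tretinoin, vemurafenib, or vemurafenib and tretinoin together (the combination). Vemurafenib inhibits mutant BRAF, which drives the ERK pathway in these cells, and tretinoin is all-trans retinoic acid, the ligand of the retinoic acid receptors. Each group had 3 libraries, and the labels list 5 µM for every group, the vehicle included. All libraries came from a single line, and p-values measure only the spread between these libraries, which may be technical.

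Ephrins and their Eph receptor tyrosine kinases signal where cells touch, and both partners stay on the membrane. The A-class ligands are held by a lipid anchor and the B-class ligands cross the membrane, so the ligand-bearing cell can signal as well. Semaphorins are secreted or membrane-bound cues that act through plexins, whose inner domain switches off small GTPases. The secreted class 3 semaphorins mostly need a neuropilin beside the plexin. These cues steer axons, vessels and the neural crest cells from which melanocytes arise, and EPHA2 is known for its abundance in many tumour lines.

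The stretches of DNA before the start of 5 members on which the results turn are given here: the deepest fall and the largest rise with vemurafenib (EPHA2 and SEMA3C), the largest rise with tretinoin (NRP2), a semaphorin whose vemurafenib level was lower with tretinoin (SEMA3D) and a semaphorin that the drugs moved in opposite directions (SEMA7A). Each is the 250 bases before the RefSeq start on GRCh38.p14, 5′ to 3′ on the gene's strand, with matches to the searched motifs in capitals. EPHA2 lies on the minus strand at chr1:16156070-16156319, SEMA3C on the minus strand at chr7:80922390-80922639, NRP2 on the plus strand at chr2:205682251-205682500, SEMA3D on the minus strand at chr7:85187057-85187306 and SEMA7A on the minus strand at chr15:74433959-74434208.
EPHA2: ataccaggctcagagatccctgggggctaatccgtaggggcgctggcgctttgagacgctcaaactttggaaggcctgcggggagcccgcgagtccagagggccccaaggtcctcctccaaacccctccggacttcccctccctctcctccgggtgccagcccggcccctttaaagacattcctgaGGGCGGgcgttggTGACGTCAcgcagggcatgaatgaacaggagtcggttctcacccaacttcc
SEMA3C: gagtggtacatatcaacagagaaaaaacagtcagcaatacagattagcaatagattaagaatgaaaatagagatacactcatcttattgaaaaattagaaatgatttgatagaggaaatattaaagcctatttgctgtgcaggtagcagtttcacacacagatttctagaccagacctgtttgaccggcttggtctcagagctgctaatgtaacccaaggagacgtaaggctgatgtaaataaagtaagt
NRP2: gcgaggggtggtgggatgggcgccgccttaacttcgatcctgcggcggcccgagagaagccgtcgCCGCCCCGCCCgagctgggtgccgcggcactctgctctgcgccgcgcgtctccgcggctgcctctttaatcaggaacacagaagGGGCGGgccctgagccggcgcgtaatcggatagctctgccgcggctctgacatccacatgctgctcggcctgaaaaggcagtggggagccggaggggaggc
SEMA3D: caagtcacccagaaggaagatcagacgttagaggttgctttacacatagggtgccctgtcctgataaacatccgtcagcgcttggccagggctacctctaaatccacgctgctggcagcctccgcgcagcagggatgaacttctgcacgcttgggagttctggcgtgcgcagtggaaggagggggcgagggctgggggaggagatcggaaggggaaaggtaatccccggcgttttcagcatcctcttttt
SEMA7A: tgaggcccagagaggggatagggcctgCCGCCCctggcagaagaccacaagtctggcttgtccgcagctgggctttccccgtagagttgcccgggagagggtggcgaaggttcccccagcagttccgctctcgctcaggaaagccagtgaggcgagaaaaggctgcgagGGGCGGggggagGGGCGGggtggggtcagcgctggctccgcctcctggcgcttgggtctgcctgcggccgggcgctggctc

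Motifs were searched on both strands in the window from 250 bases before to 50 after the start, for which 47 of the 53 members had an entry among 27305 promoters. The GC-rich SP/KLF box GGGCGG was present in 38 of the 47 (80.9%), against 44.6% of all promoters and 69.4% of those of the 10672 protein-coding genes that were tested and had an entry. It is capitalised in EPHA2, NRP2 (where 2 copies share a base) and SEMA7A. The cyclic-AMP response element TGACGTCA was found in EPHA2, where it is capitalised after the SP/KLF box, and in SEMA4C, or 4.26% of members against 1.98% of all promoters and 3.13% of the tested ones. This motif was added to the search after the EPHA2 sequence was seen. The ETS core CCGGAAG was in PLXNB1 and SEMA4B (4.26%, against 10.7% of all and 18.6% of tested promoters), and the AP-1 site TGANTCA in PLXNC1 alone (2.13%, against 7.76% and 4.69%). The nuclear receptor half-site AGGTCA was in EFNA4, SEMA3E, SEMA5A and SEMA5B (8.51%, against 13.9% and 9.72%), and the E-box CACGTG in EPHA8, SEMA3E, SEMA4D and SEMA6D (8.51%, against 7.43% and 10.2%). The retinoid direct repeats with a spacing of 5 or 2 bases matched no member promoter and 0.0586% and 0.0696% of all promoters. No searched motif fell in the windows of SEMA3C and SEMA3D. These are matches of letters within a short window and say nothing of binding.

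The libraries held 13510235 to 21534377 counted fragments. Levels are given as CPM, counts scaled per 1000000 fragments, on library sizes adjusted by the trimmed mean of M-values (TMM), and between genes as CPM per kilobase of exon (FPKM). Of 14 genes induced by ERK signalling, all 14 were lower with vemurafenib and with the combination, against 26.3% and 26.5% of all genes. Their median log2 fold changes were -2.93 and -2.89. With tretinoin 5 of 9 tested retinoid response genes were higher (55.6%, against 3.48% of all genes). Both lists were chosen with earlier results of these data known. Of 12 melanoma and melanocyte markers, 8 were tested, with a summed level of 645 to 714 CPM in DMSO, 662 to 704 CPM with tretinoin, 430 to 453 CPM with vemurafenib and 354 to 375 CPM with the combination. With vemurafenib 2 of the 8 were higher and 2 lower (25.0% each, against 26.4% and 26.3% of all genes), and 4 were not called. The 2 with the most counts, CSPG4 and MCAM, fell (log2 fold changes of -0.86 and -0.51). MITF rose by 0.88 on the log2 scale, and TYRP1 by 2.32 from only 5 to 8 counts in the DMSO libraries. PAX3 had 142 to 248 counts in a library, PMEL 8 to 25, MLANA 1 to 19, DCT 0 to 18 and TYR 0 to 1. SOX10, a defining marker of this lineage, was listed at 0 in every library. Some of its exon bases (89 of 3710 in GENCODE 29) overlap POLR2F, and fragments there would go to neither gene. Whether the gene models used for counting led to the 0 was not tested, so whether SOX10 was absent cannot be read from it. Keratinocyte markers summed to 9.60 to 36.2 CPM and fibroblast markers to 13.2 to 42.7 CPM over the libraries. Both sums were highest in the vemurafenib and combination groups, but not all markers rose. KRT14 had 171 to 188 counts in DMSO and 452 to 519 with vemurafenib, PDGFRB 145 to 225 and 570 to 742, and LUM 13 to 22 and 62 to 82. Over all libraries KRT5 had 25 to 86 counts, PDGFRA 16 to 33, DCN 4 to 30, COL1A2 2 to 22, TP63 0 to 11 and DSG3 1 to 6, with KRT1 at 0 throughout. Blood cell markers summed to 1.03 to 5.28 CPM. Their part in the differences below was not tested.

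In DMSO, EPHA2 was by far the most abundant of the 53 genes per length, at 125.8 ± 14.96 FPKM (SD, n = 3). It made up 72.8% ± 2.03 of the summed Eph receptor level. SEMA3B, a secreted semaphorin, followed at 26.6 ± 2.19 FPKM, ahead of the lipid-anchored SEMA7A at 20.1 ± 0.876 FPKM. The levels of SEMA7A, of EPHB4 (19.7 ± 1.57 FPKM), the receptor of ephrin-B2, and of PLXNB2 (19.1 ± 1.70 FPKM), a semaphorin receptor, did not differ beyond their spread. SEMA6B stood at 16.1 ± 1.53 FPKM and PLXND1 at 12.6 ± 0.885 FPKM. Among the ligands of Eph receptors EFNB2 was highest at 8.25 ± 0.541 FPKM, followed by EFNA4 at 6.67 ± 0.402 FPKM. The neuropilins were close together, NRP1 at 4.28 ± 0.188 FPKM and NRP2 at 3.93 ± 0.172 FPKM. The 9 untested members lay at the bottom of the order, at 0.069 FPKM or less.

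**Figure D1:**
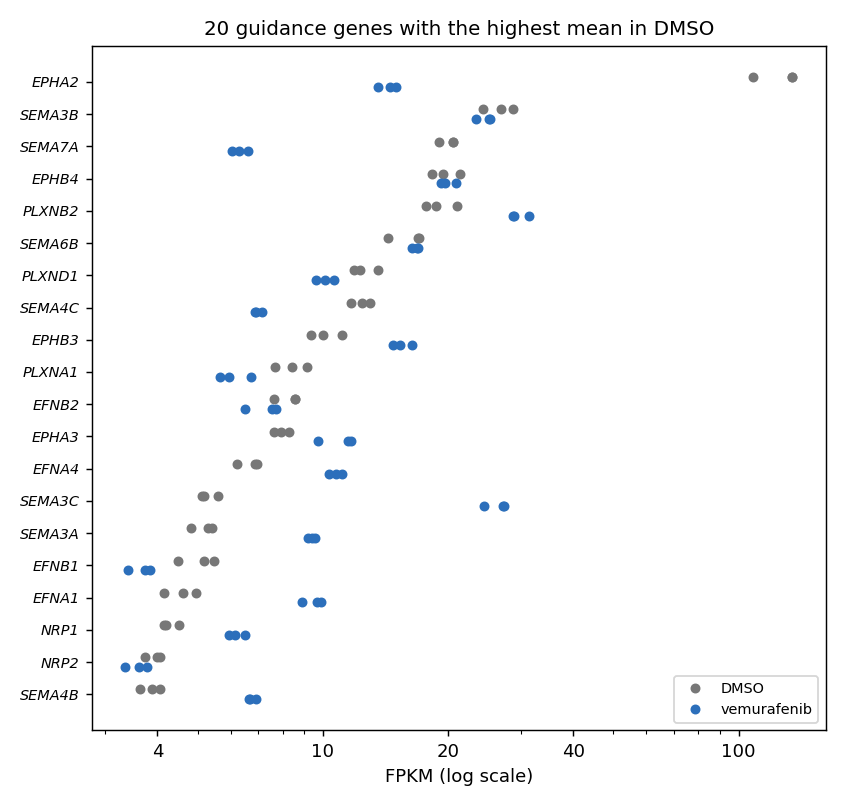
Level per length of the 20 guidance genes with the highest mean in DMSO, in FPKM on a log axis, with a grey point for each DMSO library and a blue point for each vemurafenib library. EPHA2 led in DMSO at 125.8 FPKM on average, and the blue points lie far to the left of the grey ones for EPHA2 and SEMA7A and far to the right for SEMA3C.

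Summed over a family, Eph receptors stood at 172 ± 16.0 FPKM in DMSO, 168 ± 4.68 with tretinoin, 70.6 ± 1.65 with vemurafenib and 71.9 ± 2.47 with the combination (SD, n = 3). The receptor sums with and without vemurafenib did not overlap. EPHA2 was 20.3% ± 0.65 of that sum with vemurafenib and 35.8% ± 1.29 with the combination. EPHB4 was 11.5% ± 0.63 in DMSO, 28.3% ± 1.62 with vemurafenib and 21.6% ± 1.10 with the combination. The level of EPHB4 itself was alike in DMSO (19.7 ± 1.57 FPKM) and with vemurafenib (19.96 ± 0.865 FPKM). The B-class receptors alone summed to 35.2 ± 1.18 FPKM in DMSO and 42.4 ± 1.19 FPKM with vemurafenib, so the fall was not shared by both classes. Ephrin ligands summed to 29.8 ± 0.515 FPKM in DMSO and 37.4 ± 0.371 FPKM with vemurafenib. Within the class 3 semaphorins SEMA3B held 61.5% ± 2.13 of the level in DMSO and 36.7% ± 1.51 with vemurafenib, against 12.2% ± 0.64 and 39.3% ± 1.93 for SEMA3C. The leading class 3 semaphorin by level was thus SEMA3B in DMSO, while SEMA3B and SEMA3C were near each other with vemurafenib.

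**Figure D2:**
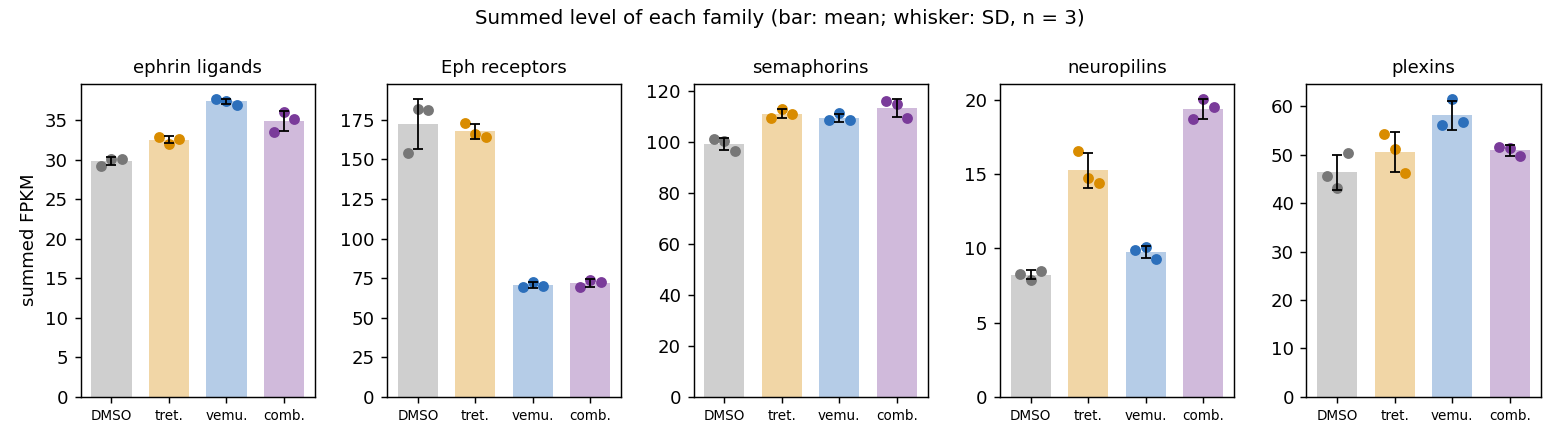
Summed level of each family per treatment, in FPKM from 0, with a bar for the mean, a whisker for the SD (n = 3) and a point for each library. The Eph receptor sum was 172 FPKM in DMSO and 70.6 FPKM with vemurafenib, and the neuropilin sum was highest in the combination.

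Vemurafenib alone and the combination were each compared with DMSO to see how the guidance genes stood under BRAF inhibition with and without the retinoid. With vemurafenib 20 of the 44 tested members were higher and 10 lower at an adjusted p under 0.05 (edgeR quasi-likelihood test, Benjamini-Hochberg over all 16740 genes). The members' shares were 45.5% and 22.7%, against 26.4% higher and 26.3% lower among all genes. In the combination 21 were higher and 12 lower (47.7% and 27.3%), against 27.1% and 26.5% of all genes. The median log2 fold change of the members was 0.50 with vemurafenib and 0.33 with the combination, against 0.02 and 0.03 for all genes. Both comparisons use the same DMSO libraries, so their values are given side by side only. Scaling by total counts alone in place of TMM moved the median of all genes up by 0.19 and 0.16 on the log2 scale, with 26 members then higher and 9 lower with vemurafenib and 24 and 11 with the combination. All genes then split into 6575 higher and 2628 lower with vemurafenib, and 6242 and 2916 with the combination.

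Against tretinoin in place of DMSO, the combination had 17 members higher and 14 lower, or 38.6% and 31.8%, against 24.1% and 25.0% of all genes. This comparison shares no library with vemurafenib against DMSO. Of the 20 members higher with vemurafenib alone, 16 (80.0%) were also higher here, which is 94.1% of the 17. All 10 that were lower with vemurafenib alone were lower here too, which is 71.4% of the 14, and no member was called in opposite directions. The Pearson r of the log2 fold changes was 0.94 across the 44 members, which are genes and not replicates. The matching overlap and r over all genes were not worked out. None of these values can therefore be read as particular to the guidance genes.

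**Figure D3:**
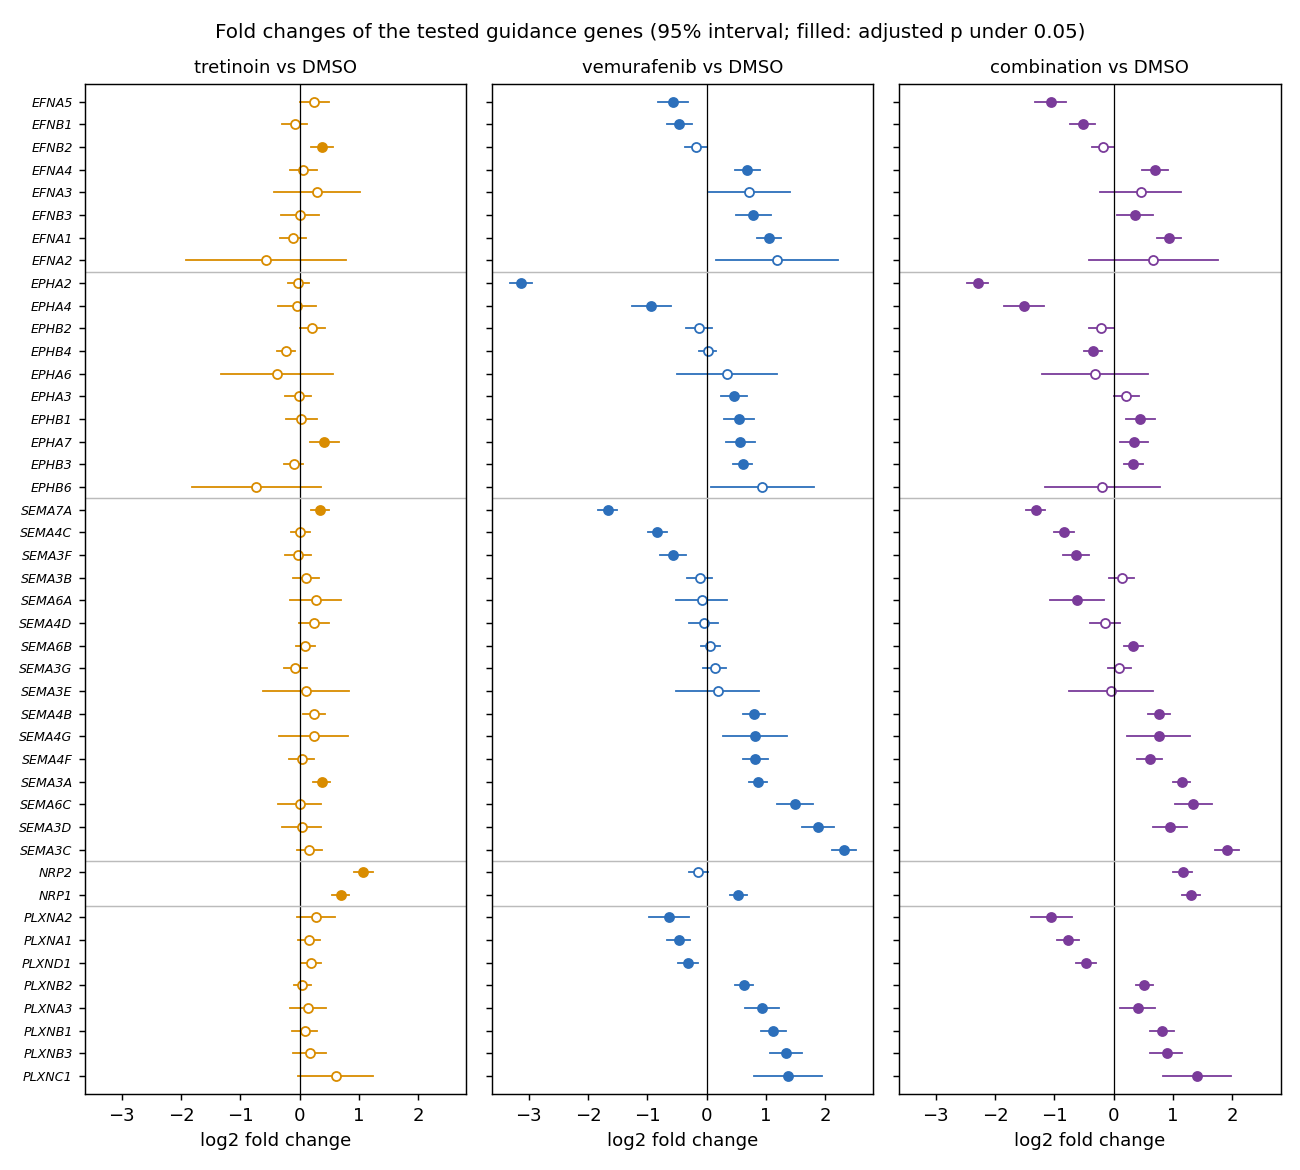
Log2 fold change of each of the 44 tested members against DMSO (x axis) for tretinoin, vemurafenib and the combination, grouped into ephrins, Eph receptors, semaphorins, neuropilins and plexins. Lines are 95% intervals, filled points passed an adjusted p of 0.05, and the point farthest to the left in the vemurafenib panel is EPHA2 at -3.13.

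Among the ephrin ligands, 3 of 8 rose (EFNA1, EFNA4 and EFNB3) and 2 fell (EFNA5 and EFNB1) with vemurafenib. The same counts held for the combination. Of all genes 26.4% were higher and 26.3% lower with vemurafenib, and 27.1% and 26.5% with the combination. The median over the 8 was 0.70 with vemurafenib and 0.41 with the combination. The combination call of EFNB3 (adjusted p = 0.043) was lost without DMSO replicate 2 or 3 or combination replicate 2 or 3 (adjusted p = 0.068 to 0.21). It also did not pass with DESeq2. EFNA5 was at 14.9, 18.2 and 15.5 CPM in the 3 DMSO libraries, 21.6, 16.2 and 19.9 CPM with tretinoin, 10.3, 12.03 and 10.3 CPM with vemurafenib and 7.43, 7.67 and 8.15 CPM with the combination. EFNA5 is a lipid-anchored ligand of several EPHA receptors. All 6 libraries with vemurafenib lay below all those without it, and the combination lay below vemurafenib alone. Its change against DMSO on the log2 scale was -0.57 ± 0.12 (SE, adjusted p = 0.00071) for vemurafenib and -1.06 ± 0.123 (adjusted p = 1.3e-06) for the combination. The combination also fell below vemurafenib alone, by 0.49 on the log2 scale (SE 0.126, adjusted p = 0.03). That call was lost with vemurafenib replicate 1 or 2 or any combination replicate left out (adjusted p = 0.057 to 0.18).

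EFNA4, EFNA3 and EFNA1 are neighbours on chromosome 1, with gaps of 9.3 and 39.9 kb. EFNA1 and EFNA4 rose and EFNA3 did not pass the test. With vemurafenib the log2 fold change of EFNA3 was 0.72 (SE 0.321, adjusted p = 0.068). The values of EFNA4 and EFNA1 were 0.685 and 1.05. EFNA3 had only 12 to 34 counts in a library, so the test cannot tell whether it differed from its neighbours. Of the exon bases of EFNA3, 44.7% (853 bases) are shared in GENCODE 29 with AL691442.1 on the same strand, as are 189 exon bases of EFNA4, and fragments there could not be assigned to either gene. EFNB2 was at 38.3, 42.96 and 43.01 CPM in the 3 DMSO libraries, 55.3, 55.7 and 50.9 CPM with tretinoin, 38.7, 37.8 and 32.7 CPM with vemurafenib and 32.3, 38.6 and 38.2 CPM with the combination. EFNB2, the membrane-spanning ligand of EPHB4, was higher in all 3 tretinoin libraries than in any other library. Against DMSO its log2 fold change was 0.38 ± 0.088 (SE, adjusted p = 0.016) for tretinoin. Neither vemurafenib (-0.18, adjusted p = 0.089) nor the combination (-0.19, adjusted p = 0.085) passed the test. The tretinoin call was lost without DMSO replicate 1 (adjusted p = 0.065) or tretinoin replicate 2 (adjusted p = 0.056), and 26.2% of the exon bases of EFNB2 (1313 bases) overlap the antisense gene AL138689.2. The counting ignored strand, so fragments there would go to neither gene if the models used for counting hold this overlap, which was not tested.

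Of the 10 Eph receptors tested, 4 rose (EPHA3, EPHA7, EPHB1 and EPHB3) and 2 fell (EPHA2 and EPHA4) with vemurafenib. With the combination 3 rose and 3 fell. The shares of all genes were 26.4% higher and 26.3% lower with vemurafenib, and 27.1% and 26.5% with the combination. EPHA2 was at 451, 559 and 559 CPM in the 3 DMSO libraries, 524, 512 and 513 CPM with tretinoin, 56.4, 62.4 and 60.5 CPM with vemurafenib and 99.04, 114 and 109 CPM with the combination. EPHA2 is a receptor of the A-class ephrins, and the kinases AKT and RSK phosphorylate it as well. The 6 libraries with vemurafenib and the 6 without it were far apart, and the combination libraries all lay above those with vemurafenib alone. The log2 fold change against DMSO was -3.13 ± 0.09 (SE, adjusted p = 1.8e-14) for vemurafenib and -2.29 ± 0.087 (adjusted p = 5.8e-13) for the combination, 8.76-fold and 4.88-fold lower. With tretinoin alone it was -0.02 (95% interval -0.19 to 0.15, adjusted p = 0.92). The DMSO libraries spread from 451 to 559 CPM, more widely than those of any other group.

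EPHA4 was at 17.9, 18.7 and 14.99 CPM in the 3 DMSO libraries, 21.7, 13.7 and 14.9 CPM with tretinoin, 9.71, 9.33 and 7.87 CPM with vemurafenib and 6.49, 6.32 and 5.25 CPM with the combination. EPHA4 binds ephrins of both classes. Its libraries with vemurafenib lay below all those without it. It had a log2 fold change of -0.93 ± 0.155 (SE, adjusted p = 7.7e-05) for vemurafenib and -1.51 ± 0.161 (adjusted p = 4.7e-07) for the combination. The combination libraries all lay below those with vemurafenib alone, yet that difference of -0.58 did not pass the test (adjusted p = 0.061). EPHB4 was at 118, 138 and 125 CPM in the 3 DMSO libraries, 109, 114 and 102 CPM with tretinoin, 127, 124 and 135 CPM with vemurafenib and 101, 97.4 and 101 CPM with the combination. EPHB4 was lower in the combination than in every DMSO and vemurafenib library. It fell by 0.35 on the log2 scale against DMSO (SE 0.07, adjusted p = 0.00044) and by 0.36 against vemurafenib (SE 0.07, adjusted p = 0.0034). With tretinoin alone its 3 libraries also lay below those of DMSO, and the difference of -0.23 did not pass the test (adjusted p = 0.066).

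EPHA7 was at 7.28, 6.82 and 7.97 CPM in the 3 DMSO libraries, 8.80, 10.3 and 10.3 CPM with tretinoin, 11.01, 10.97 and 10.8 CPM with vemurafenib and 8.58, 10.4 and 9.05 CPM with the combination. EPHA7, a further A-class receptor, was higher in every drug-treated library than in any DMSO library. The log2 fold change against DMSO was 0.42 ± 0.118 (SE, adjusted p = 0.045) with tretinoin, 0.56 ± 0.115 (adjusted p = 0.00052) with vemurafenib and 0.34 ± 0.116 (adjusted p = 0.02) with the combination. The tretinoin call was lost without any 1 DMSO replicate or tretinoin replicate 2 or 3 (adjusted p = 0.057 to 0.18), and the combination call without DMSO replicate 1 or 2 or combination replicate 2 (adjusted p = 0.052 to 0.11). Both also did not pass with DESeq2.

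Semaphorins of the same class moved in both directions. Of 16 tested, 7 were higher and 3 lower with vemurafenib, and 8 were higher and 4 lower in the combination. The shares of all genes were 26.4% higher and 26.3% lower with vemurafenib, and 27.1% and 26.5% in the combination. SEMA3C was at 32.4, 34.99 and 32.03 CPM in the 3 DMSO libraries, 44.6, 31.3 and 35.99 CPM with tretinoin, 169.7, 171 and 153 CPM with vemurafenib and 119.5, 130 and 125 CPM with the combination. SEMA3C is a secreted class 3 semaphorin that signals through neuropilins and plexins. Its level was higher in all 6 libraries with vemurafenib, and within these the combination lay below vemurafenib alone. The log2 fold change against DMSO was 2.31 ± 0.099 (SE, adjusted p = 3.3e-12) for vemurafenib, the largest rise of any member, and 1.91 ± 0.098 (adjusted p = 4.1e-11) for the combination. In the window before its start, shown above, no searched motif was found. SEMA3D was at 2.64, 3.38 and 3.54 CPM in the 3 DMSO libraries, 3.30, 3.14 and 3.396 CPM with tretinoin, 11.4, 11.98 and 11.8 CPM with vemurafenib and 6.33, 5.95 and 6.38 CPM with the combination. SEMA3D is a class 3 semaphorin too, at a level per length far below that of SEMA3C. It rose with vemurafenib by 1.87 ± 0.129 on the log2 scale (SE, adjusted p = 2.2e-09) and with the combination by 0.96 ± 0.136 (adjusted p = 1.4e-05).

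SEMA3A was at 45.2, 50.7 and 49.5 CPM in the 3 DMSO libraries, 66.6, 60.3 and 61.3 CPM with tretinoin, 89.8, 88.2 and 86.3 CPM with vemurafenib and 102, 112 and 108 CPM with the combination. SEMA3A is the class 3 semaphorin known for the collapse of growth cones through NRP1. No libraries overlapped between any of the 4 groups, in the order DMSO, tretinoin, vemurafenib and combination. Against DMSO the log2 fold change was 0.37 ± 0.071 (SE, adjusted p = 0.0043) for tretinoin, 0.86 ± 0.07 (adjusted p = 1.6e-08) for vemurafenib and 1.15 ± 0.07 (adjusted p = 3.8e-10) for the combination. SEMA3C, SEMA3E, SEMA3A and SEMA3D lie in this order on chromosome 7, with gaps of 2441, 306.7 and 502.8 kb. The other 3 rose with vemurafenib, whereas SEMA3E, whose exons hold a repeated stretch found in many genes, did not pass the test. SEMA3F, on chromosome 3 and 78.5 kb from SEMA3B, fell while SEMA3B was called in no comparison.

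Of the membrane-bound semaphorins, SEMA4B, SEMA4F, SEMA4G and SEMA6C rose with vemurafenib and SEMA4C and SEMA7A fell. SEMA6C was at 2.90, 3.17 and 2.27 CPM in the 3 DMSO libraries, 2.86, 2.67 and 2.74 CPM with tretinoin, 7.84, 7.36 and 7.99 CPM with vemurafenib and 7.37, 7.11 and 6.57 CPM with the combination. The vemurafenib and combination libraries of SEMA6C did not overlap with the others. SEMA6C, a class 6 transmembrane semaphorin, rose by 1.49 ± 0.146 (SE, adjusted p = 1.8e-07) and 1.34 ± 0.147 (adjusted p = 6.2e-07) on the log2 scale. SEMA4C was at 76.6, 71.8 and 79.8 CPM in the 3 DMSO libraries, 80.1, 76.5 and 73.95 CPM with tretinoin, 42.2, 43.9 and 42.4 CPM with vemurafenib and 45.7, 44.6 and 37.6 CPM with the combination. SEMA4C, a ligand of plexin B2, was lower in all libraries with vemurafenib, and its levels with vemurafenib and with the combination overlapped. It fell by 0.83 on the log2 scale with vemurafenib (SE 0.077, adjusted p = 9.4e-08) and by 0.84 with the combination (SE 0.077, adjusted p = 7.6e-08). For SEMA4G, 22.3% of exon bases (1170 bases) overlap MRPL43 on the other strand, so its values are uncertain.

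SEMA7A was at 72.4, 77.95 and 78.3 CPM in the 3 DMSO libraries, 101, 96.8 and 93.7 CPM with tretinoin, 23.9, 22.9 and 25.1 CPM with vemurafenib and 29.3, 33.5 and 28.97 CPM with the combination. SEMA7A is anchored by a lipid and binds plexin C1 and integrin beta 1. None of the 4 groups overlapped: levels were highest with tretinoin, then in DMSO, the combination and vemurafenib. Its log2 fold change against DMSO was 0.35 ± 0.071 (SE, adjusted p = 0.0067) for tretinoin, -1.67 ± 0.076 (adjusted p = 7.7e-12) for vemurafenib and -1.32 ± 0.074 (adjusted p = 1.3e-10) for the combination. Of the integrin subunits through which it can act, ITGA1 fell by 1.07 and 1.02 on the log2 scale. ITGB1 fell by 0.20 (SE 0.064, adjusted p = 0.017) and 0.24 (SE 0.064, adjusted p = 0.0041), calls that were lost under scaling by total counts alone (-0.001 and -0.081, adjusted p = 0.99 and 0.28). PLXNC1 was at 1.80, 1.22 and 1.27 CPM in the 3 DMSO libraries, 2.64, 1.57 and 2.35 CPM with tretinoin, 4.47, 2.36 and 4.33 CPM with vemurafenib and 3.41, 4.37 and 3.58 CPM with the combination. PLXNC1, the plexin that binds SEMA7A, had the lowest level per length of the 8 tested plexins in DMSO, and it rose by 1.37 ± 0.276 (SE, adjusted p = 0.00048) with vemurafenib and by 1.41 ± 0.273 (adjusted p = 0.00031) with the combination.

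The neuropilins are co-receptors that bind class 3 semaphorins and vascular endothelial growth factors. NRP1 was at 48.3, 47.9 and 51.8 CPM in the 3 DMSO libraries, 86.1, 77.9 and 76.6 CPM with tretinoin, 70.7, 74.8 and 68.6 CPM with vemurafenib and 119.8, 126 and 122 CPM with the combination. Every drug-treated library was above every DMSO library, and the combination was above both single drugs. The log2 fold change of NRP1 against DMSO was 0.70 ± 0.069 (SE, adjusted p = 7.2e-06) for tretinoin, 0.53 ± 0.069 (adjusted p = 4.7e-06) for vemurafenib and 1.31 ± 0.068 (adjusted p = 4.9e-11) for the combination. NRP2 was at 56.5, 51.95 and 55.6 CPM in the 3 DMSO libraries, 127, 111 and 108 CPM with tretinoin, 52.4, 50.2 and 46.6 CPM with vemurafenib and 115, 127 and 124 CPM with the combination. NRP2 was high in the 6 libraries with tretinoin and low in the 6 without it, whether or not vemurafenib was present. It rose by 1.07 ± 0.076 (SE, adjusted p = 1.6e-07) with tretinoin and by 1.16 ± 0.076 (adjusted p = 1.0e-09) with the combination, 2.10-fold and 2.23-fold. With vemurafenib alone the log2 fold change was -0.14 (95% interval -0.30 to 0.03, adjusted p = 0.15), and the combination differed from tretinoin by 0.09 (95% interval -0.07 to 0.24, adjusted p = 0.34).

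Because neuropilins are also abundant in vessels, endothelial markers were examined beside them. The list of 5 summed to 5.87 to 7.84 CPM in DMSO, 14.4 to 19.7 CPM with tretinoin, 6.19 to 7.38 CPM with vemurafenib and 15.1 to 16.6 CPM with the combination. The sum was higher with tretinoin than without it, as NRP2 was, but unlike NRP1 it overlapped between DMSO and vemurafenib. Its members went different ways. CDH5, the cadherin of endothelial junctions, had 64 to 98 counts in DMSO, 200 to 242 with tretinoin, 1 to 4 with vemurafenib and 45 to 78 with the combination. TEK, the angiopoietin receptor, had 8 to 23 counts in DMSO, 23 to 28 with tretinoin, 62 to 79 with vemurafenib and 178 to 228 with the combination, and VWF, a clotting factor of vessel walls, had 1 to 15, 1 to 13, 34 to 43 and 33 to 46. CLDN5 had 0 to 9 counts and PECAM1 5 to 36 counts in a library. The part of these markers in the neuropilin levels was not tested.

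**Figure D4:**
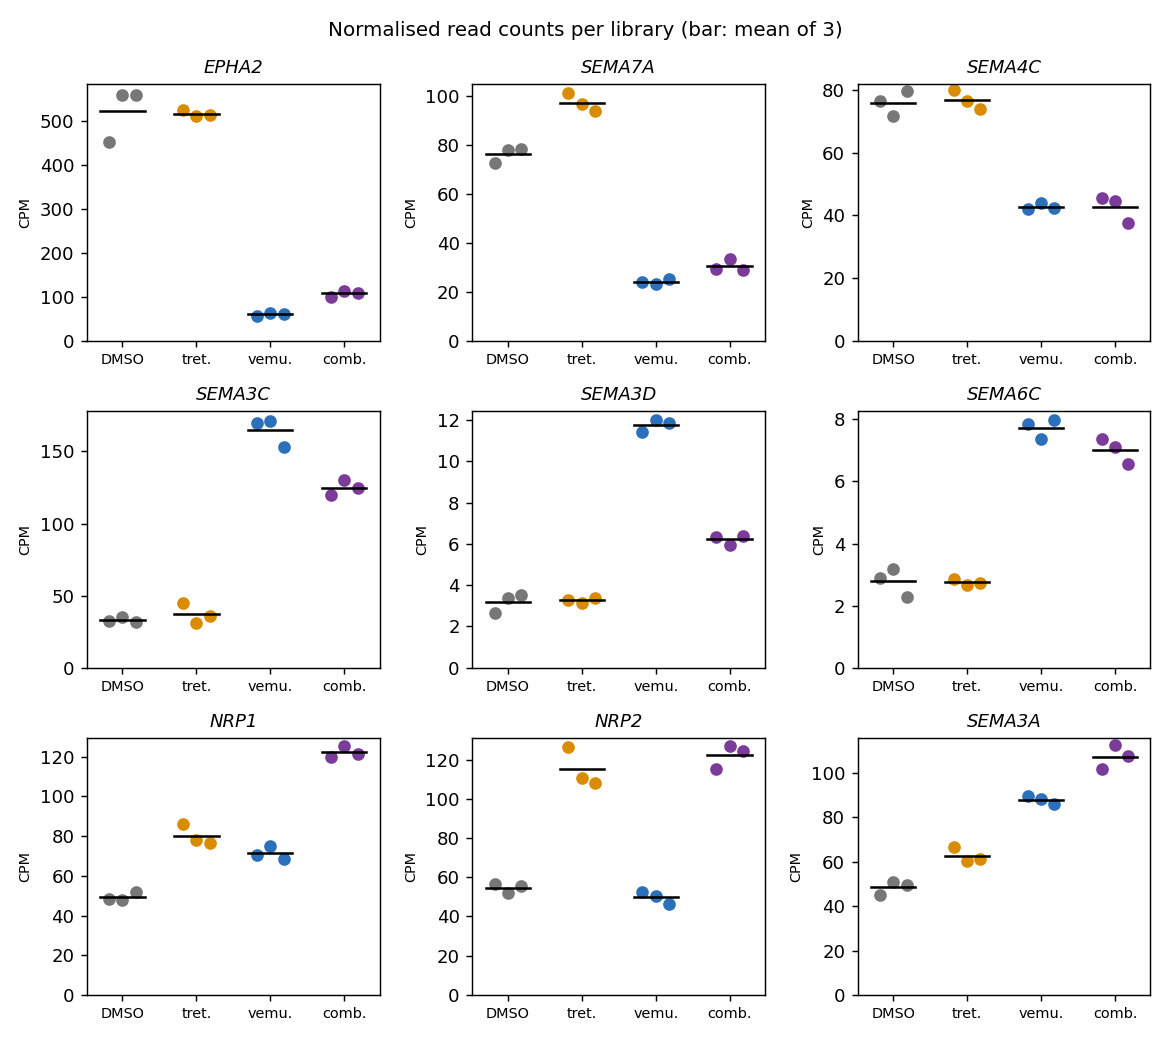
Normalised read counts (CPM, axis from 0) of 9 guidance genes in each of the 12 libraries, with a bar at the mean of each group of 3. EPHA2, SEMA7A and SEMA4C are low in the vemurafenib and combination groups, SEMA3C, SEMA3D and SEMA6C are high there, and NRP2 is high in the 6 libraries with tretinoin, from 108 to 127 CPM.

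All 8 tested plexins were called in both comparisons, 5 higher and 3 lower in each. Of all genes 26.4% were higher and 26.3% lower with vemurafenib, and 27.1% and 26.5% with the combination. The combination call of PLXNA3 (adjusted p = 0.022) was lost without DMSO replicate 2 or combination replicate 2 (adjusted p = 0.072 and 0.1). The B-class plexins PLXNB1, PLXNB2 and PLXNB3, which bind class 4 semaphorins among others, rose with vemurafenib, as did PLXNA3 and PLXNC1. PLXNA1, PLXNA2 and PLXND1 fell. PLXNB1 was at 27.3, 20.5 and 25.6 CPM in the 3 DMSO libraries, 25.3, 27.4 and 25.1 CPM with tretinoin, 49.8, 59.03 and 51.3 CPM with vemurafenib and 45.2, 43.02 and 41.1 CPM with the combination. PLXNB1 is the receptor of SEMA4D. Its libraries with vemurafenib lay above all others, with log2 fold changes of 1.12 ± 0.098 (SE, adjusted p = 4.1e-08) and 0.81 ± 0.098 (adjusted p = 2.0e-06) for vemurafenib and the combination. PLXNB3 was at 13.6, 8.92 and 12.6 CPM in the 3 DMSO libraries, 14.96, 13.1 and 11.8 CPM with tretinoin, 30.1, 29.8 and 28.9 CPM with vemurafenib and 24.1, 20.1 and 21.4 CPM with the combination. PLXNB3, the receptor of SEMA5A, followed the same order of groups. It rose by 1.33 ± 0.126 (SE, adjusted p = 1.1e-07) and 0.89 ± 0.127 (adjusted p = 1.4e-05), and 20.4% of its exon bases (1432 bases) are shared with SRPK3 on the same strand.

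PLXNA2 was at 10.96, 15.9 and 15.5 CPM in the 3 DMSO libraries, 21.4, 15.3 and 15.2 CPM with tretinoin, 8.67, 8.52 and 10.3 CPM with vemurafenib and 7.26, 7.25 and 5.98 CPM with the combination. PLXNA2, a partner of neuropilins and a receptor of class 6 semaphorins, was lower in all 6 libraries with vemurafenib. Its log2 fold change was -0.63 ± 0.158 (SE, adjusted p = 0.0028) for vemurafenib and -1.05 ± 0.162 (adjusted p = 3.2e-05) for the combination. PLXND1, a receptor of SEMA3E, fell by 0.31 with vemurafenib (SE 0.081, adjusted p = 0.0036), and under scaling by total counts alone the fall of 0.12 did not pass (adjusted p = 0.27).

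Tretinoin alone was compared with DMSO, and the combination with vemurafenib, to see the retinoid's difference without and with BRAF inhibition. With tretinoin alone 6 members rose (NRP1, NRP2, SEMA3A, SEMA7A, EFNB2 and EPHA7), which is 13.6% of those tested, against 3.48% of all genes. None fell in edgeR, against 2.2% of all genes, with 1 (EPHB4) at an unadjusted p under 0.05 and 1 called by DESeq2. In the presence of vemurafenib, 6 members rose (NRP1, NRP2, SEMA3A, SEMA7A, EPHA2 and SEMA6B; 13.6%, against 2.27% of all genes) and 7 fell (EFNA5, EPHB3, EPHB4, PLXNA3, PLXNB3, SEMA3C and SEMA3D; 15.9%, against 2.2%). These comparisons share no library, and 4 of the 6 rises (66.7% of each list) were of the same genes, NRP1, NRP2, SEMA3A and SEMA7A. The Pearson r of the log2 fold changes across the 44 members was 0.63. Neither this r nor the overlap of the rises was worked out over all genes, so they have no background to be read against. The members' median was 0.10 without vemurafenib and -0.15 with it, against 0.01 and 0.00 for all genes.

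For the 4 shared genes the differences from vemurafenib alone were 1.30 ± 0.076 (SE, adjusted p = 4.7e-09) for NRP2, 0.78 ± 0.067 (adjusted p = 8.0e-07) for NRP1, 0.35 ± 0.077 (adjusted p = 0.01) for SEMA7A and 0.28 ± 0.067 (adjusted p = 0.017) for SEMA3A, on the log2 scale. The SEMA3A call was lost without any 1 vemurafenib replicate or combination replicate 2 or 3 (adjusted p = 0.057 to 0.12), and the SEMA7A call without vemurafenib replicate 2 or combination replicate 2 (adjusted p = 0.078 and 0.091). EPHA2 was 0.84 ± 0.086 (SE, adjusted p = 5.6e-06) higher in the combination than with vemurafenib alone, and SEMA3D 0.92 lower (log2 fold change -0.92 ± 0.114, adjusted p = 5.1e-05). SEMA3C was lower by a log2 fold change of -0.40 ± 0.091 (adjusted p = 0.013). That call was lost without vemurafenib replicate 1 or 2 or combination replicate 1 or 3 (adjusted p = 0.054 to 0.076). The call for PLXNB3 (-0.44 ± 0.117, adjusted p = 0.036) was lost without any 1 vemurafenib replicate or combination replicate 2 or 3 (adjusted p = 0.079 to 0.19). The calls of SEMA6B and EPHB3 were lost without any 1 of the 6 libraries (adjusted p = 0.098 to 0.19 and 0.054 to 0.21), and that of PLXNA3 without vemurafenib replicate 1 or 2 or combination replicate 1 or 3 (adjusted p = 0.08 to 0.17). Where all libraries gave 7 falls, there were 2 without vemurafenib replicate 1 or 2 or combination replicate 3, 3 without combination replicate 1 and 4 without combination replicate 2. Of the 6 rises, 3 remained in number without vemurafenib replicate 2 or combination replicate 2.

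Whether tretinoin's difference itself depended on vemurafenib was tested by the interaction of the drugs, the log2 fold change of the combination against vemurafenib less that of tretinoin against DMSO. It was called above 0 for EPHA2 alone and below 0 for SEMA3D alone, 2.27% of members each, against 0.382% and 0.424% of all genes. For EPHA2 it was 0.86 ± 0.119 (SE, adjusted p = 0.0024), with no detectable difference for tretinoin alone (-0.02) and a rise beside vemurafenib. For SEMA3D it was -0.95 ± 0.192 (adjusted p = 0.024), with 0.04 for tretinoin alone (95% interval -0.29 to 0.36, adjusted p = 0.93). The SEMA3D call was lost without DMSO replicate 2, tretinoin replicate 3, any 1 vemurafenib replicate or combination replicate 2 (adjusted p = 0.05 to 0.076, the lowest just above the threshold), with estimates from -0.99 to -0.92. EFNA5 and SEMA3C fell just short, at -0.74 (adjusted p = 0.052) and -0.57 (adjusted p = 0.06), with 0.25 and 0.17 for tretinoin alone (adjusted p = 0.21 and 0.35).

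Over the 44 members the interaction was below 0 for 35 (79.5%), against 51.4% of all genes, with a median of -0.28 against -0.01. At an unadjusted p under 0.05 there were 15 members (34.1%, against 15.6% of all genes), 14 of them below 0 (31.8%, against 8.1%). Under scaling by total counts alone the median of all genes moved by -0.10, and 4 members were called below 0, with 0.789% of all genes.

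**Figure D5:**
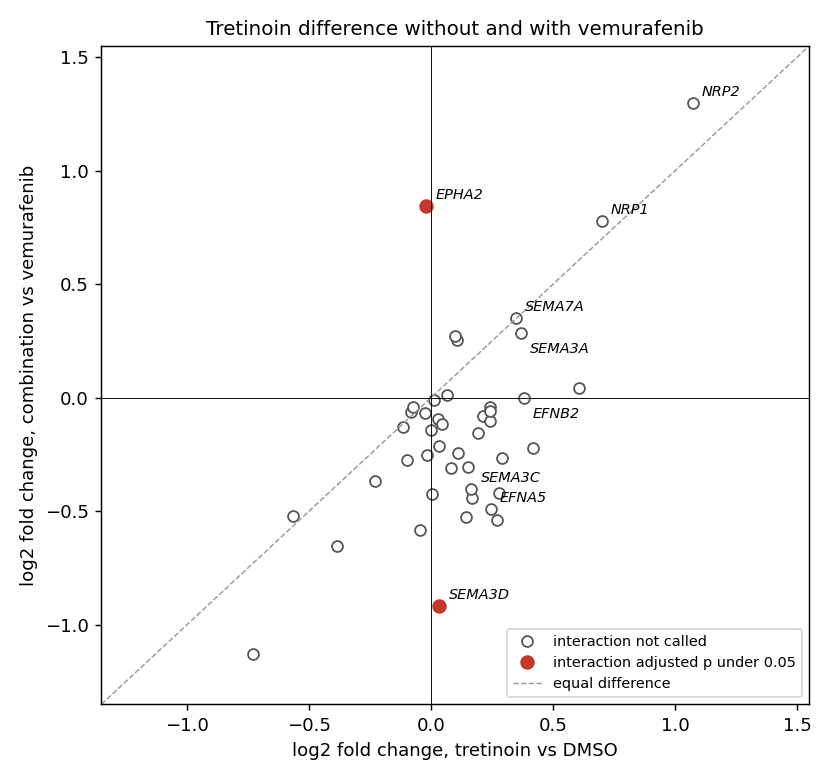
Log2 fold change of tretinoin against DMSO (x axis) and of the combination against vemurafenib (y axis) for the 44 tested members, with a dashed line where both are equal. NRP1, NRP2, SEMA3A and SEMA7A lie near the line, while EPHA2 (y = 0.84) and SEMA3D (y = -0.92), the filled points, have an interaction past the threshold.

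Genes that work with these cues were followed in lists set apart from the members. Of 10 further semaphorin receptors and co-receptors, 8 were tested and all 8 were called. With vemurafenib 2 were higher and 6 lower (25.0% and 75.0%, against 26.4% and 26.3% of all genes). With the combination 1 was higher and 7 lower (12.5% and 87.5%, against 27.1% and 26.5%). Not all 8 were called under scaling by total counts alone, with 2 higher and 4 lower with vemurafenib and 1 and 5 with the combination. In the combination KDR, a growth factor receptor that pairs with neuropilins, fell by 2.27 on the log2 scale and MST1R, a receptor kinase that can associate with B-class plexins, by 1.58, and ERBB2, which partners B-class plexins, rose by 0.70. Of 30 tested semaphorin signalling partners, 7 were higher and 13 lower with vemurafenib (23.3% and 43.3%, against 26.4% and 26.3% of all genes), and 6 and 14 with the combination (20% and 46.7%, against 27.1% and 26.5%). Under scaling by total counts alone these became 10 and 8, and 9 and 9, while all genes went to 39.3% and 15.7% with vemurafenib. In the combination MICAL3, of the MICAL family of actin-oxidising enzymes, fell by 1.30 and FURIN, which cleaves semaphorin precursors, by 1.07, while the small GTPases RND2 and MRAS rose by 1.01 and 0.75. With tretinoin alone none of the 30 was called, against only 3.48% higher and 2.2% lower among all genes.

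Of 33 Eph receptor signalling partners, 11 were higher and 9 lower with vemurafenib (33.3% and 27.3%), and 8 and 10 with the combination (24.2% and 30.3%), shares near those of all genes given above. With total counts alone they were 16 and 3, and 12 and 5. All genes then shifted too, to 39.3% higher and 15.7% lower with vemurafenib and 37.3% and 17.4% with the combination. In the combination VAV3 rose by 2.51 and its paralogue VAV2 fell by 1.05, while SIPA1L2, of a family that inactivates Rap GTPases, rose by 1.69 and the phosphatase PTPRO fell by 1.01. Their median was 0.04 with vemurafenib and -0.02 with the combination. Of 26 netrin, slit and RGM guidance genes, 18 were tested, with 10 higher and 5 lower with vemurafenib (55.6% and 27.8%, against 26.4% and 26.3% of all genes) and 9 and 5 with the combination (50% and 27.8%, against 27.1% and 26.5%). RGMA, a repulsive cue, rose by 2.90 and FLRT1 by 4.28 in the combination, FLRT1 from only 5 to 9 counts in the DMSO libraries, and ROBO4, a slit receptor family member known from vessels, and FLRT3 fell by 3.48 and 1.33. With tretinoin alone 1 of the 18 was higher (5.6%) and none was lower, against 3.48% and 2.2% of all genes.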

How the data were processed

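RNA-seq of 12 A375 libraries was used, 3 for each of 4 treatments as given by the labels. The authors deposited unnormalised counts (whole fragments per gene), obtained with STAR 2.5.3a on GRCh38.p10 and GENCODE 27, counting fragments over the union of exons without regard to strand. Fragments that touched exons of 2 genes went to neither. Total counts were 13510235 to 21534377, which limits precision at low counts. Genes were filtered with filterByExpr by group (16740 kept), scaled by TMM and fitted over all 12 libraries with edgeR 4.0.16 (glmQLFit and glmQLFTest, R 4.3.3, no block, common dispersion 0.00653). P-values were adjusted over all tested genes by the Benjamini-Hochberg method with a threshold of 0.05. SE is the size of the log2 fold change divided by the square root of F, and 95% intervals use edgeR's total degrees of freedom. Exon lengths and positions came from GENCODE 29 and promoters from RefSeq (GRCh38.p14). Shared stretches of 150 bases or more at 98% identity were found with blastn 2.17.0.

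Members and gene lists were chosen with earlier results of these data known. Values in every library are given for members called for tretinoin, for the combination against vemurafenib or in the interaction (up to 8 each), and for the 6 largest rises and falls with vemurafenib and with the combination. For other lists, at most 2 genes of the largest rise and 2 of the largest fall in the combination were named. Same-numbered libraries did not deviate together (correlations of -0.143 to 0.0872 over 18 pairs), so the numbers were not taken to pair them. No replicate pair was alike to within sampling noise. The fit was tested on simulated data. Alternatives were DESeq2 1.42.0 with and without a beta prior, its size factors in edgeR, total counts alone, no filter, a minimum of 10 counts in each library, a fit on only the 2 groups compared, a replicate block, each replicate left out, and a threshold of 0.1.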

Additional observations from a re-analysis of the deposited data

Results flagged for a closer look

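For 2 guidance genes the difference made by tretinoin was not the same with and without vemurafenib, by the edgeR test of the interaction over all 12 libraries. EPHA2 had an interaction of 0.86 on the log2 scale (SE 0.119, adjusted p = 0.0024), and its 3 combination libraries lay between 99.0 and 114 CPM, above 56.4 to 62.4 CPM with vemurafenib alone. SEMA3D had an interaction of -0.95 (SE 0.192, adjusted p = 0.024), and its combination libraries lay between 5.95 and 6.38 CPM, below 11.43 to 11.98 CPM with vemurafenib alone. Groups of 3 libraries are too small for a test of single libraries that stand apart.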

How the results depend on the processing

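Of 115 calls on guidance genes, 93 held under every alternative tried for them, no call was reversed, and 100 of 1620 alternative fits lost a call. The count of members lower with tretinoin went from 0 to 1 with either DESeq2 fit and at a threshold of 0.1, and ran from 0 to 1 with a replicate left out. The count lower in the combination than with vemurafenib went from 7 to 13 with only the 2 groups compared and to 11 at a threshold of 0.1, and ran from 2 to 5 with a replicate left out, when the count higher ran from 3 to 5. The count with an interaction below 0 went from 1 to 3 with either DESeq2 fit, to 4 with total counts alone, 6 without the filter, 4 at a threshold of 0.1 and 0 with the replicate block, under which the SEMA3D interaction had an adjusted p of 0.055. It ran from 0 to 4 with a replicate left out. The other counts with a replicate left out ran from 4 to 6 (higher with tretinoin), 19 to 21 and 10 to 11 (vemurafenib), 18 to 21 and 11 to 13 (combination), and 15 to 19 and 14 to 14 (combination against tretinoin).

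The replicate block also ended the calls of EPHA7 with tretinoin, EFNB3 with the combination (against DMSO and against tretinoin), and SEMA6B, EPHB3 and EFNA5 in the combination against vemurafenib, and no other call. Values near 0 that had passed no test changed sign: with total counts alone, EPHA2 with tretinoin was at 0.057, NRP2 with vemurafenib at 0.057 and EFNB2 with vemurafenib at 0.011. With a replicate left out, the tretinoin difference ran from -0.112 to 0.032 for EPHA2 (above 0 without DMSO replicate 2 or 3) and from -0.076 (without DMSO replicate 1) to 0.127 for SEMA3D. Members with few counts, such as SEMA4G and PLXNC1, have wide errors at this depth. The causes of these changes were not tested.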
